A study of Macaca mulatta with 449 samples.

Results

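Serotonin acts in the brain through a family of receptors whose genes were followed here across the rhesus macaque brain. The 10 genes HTR1A, HTR1B, HTR1D, HTR1E, HTR1F, HTR2A, HTR2C, HTR3A, HTR4 and HTR7 were looked up by symbol in a gene count table of 30807 genes. A row was paired with 9 of the 10. No row could be paired with HTR7, which encodes a receptor that raises cyclic AMP, so it is not analysed here. The symbol of HTR1F was taken from the ID and symbol columns of the study's supplementary tables, and the other 8 symbols from a reference list of gene names.

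The table held ribosomal RNA-depleted total RNA sequencing of 408 samples, 51 sub-regions from each of 8 untreated macaques. The animals were 4 males and 4 females, of which 4 were classed as young (animals 4, 7, 8 and 10, aged 3.2 to 5 years) and 4 as mid-aged (animals 2, 3, 6 and 11, aged 9.8 to 10 years). Each age stage held 2 males and 2 females. Sub-regions were placed in 16 region groups: cortex (31 sub-regions in 5 lobes), hippocampus (HIP, with CA1, CA3 and dentate gyrus, DG), striatum (STR, with nucleus accumbens, ACb, caudate nucleus, CN, and putamen, PUT), cerebellum (CB, with cerebellar cortex, CBC, and vermis, CBV), and 12 groups of a single sub-region. In the forebrain the 12 were the amygdala (AMY), globus pallidus (GP), olfactory bulb (OB), thalamus (THA), hypothalamus (HTHA), corpus callosum (CC) and the joint sample of entorhinal and perirhinal cortex (PA). Below it they were the substantia nigra (SN), ventral tegmental area (VTA), pons (PON) and medulla oblongata (MO), and the pituitary (PIT) was taken too. Samples held 7784678 to 31083490 counts, with a median of 10698602. Levels are given as CPM, a gene's share of the TMM-scaled library. Region groups and sub-regions were scaled separately, so a sample's value can differ slightly between them, and marker sums are on the scale of sub-regions. A count of 3, taken as the limit of detection in a single sample, was worth 0.0965 to 0.385 CPM. The lengths of the gene models were not used, so levels are compared between regions for the same gene and never between genes.

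Serotonin is made by neurons of the raphe nuclei of the brain stem, whose axons reach most of the forebrain and spinal cord. Receptors of the HTR1 class couple to inhibitory G proteins and lower cyclic AMP, and HTR1A, HTR1B and HTR1D also act as autoreceptors that restrain serotonin neurons. HTR2A and HTR2C couple to Gq and phospholipase C, HTR3A forms a ligand-gated cation channel that in cortex marks a class of interneurons, and HTR4 raises cyclic AMP through Gs. HTR2A is the main target of classical psychedelics, HTR1B and HTR1D are targets of the triptans used against migraine, and HTR2C is known for its abundance in choroid plexus and its role in feeding.

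The marker lists of the striatum, thalamus, cerebellum, olfactory bulb, hypothalamus and pituitary were at their highest in the region of that label. The summed level of 3 hypothalamic peptide genes was 505 to 2900 CPM in the 8 hypothalamic samples, and that of 7 anterior pituitary genes was 37380 to 355300 CPM in the pituitary. Some samples stood apart. The hypothalamic sample of animal 6 held 614 CPM of cortical excitatory neuron markers, against 10.7 to 18.2 CPM in the other 7. The medulla sample of animal 6 held 246 CPM of pan-neuronal markers, against 3429 to 6589 CPM in the other 7. The VTA samples held 20.0 to 396 CPM of the dopamine neuron genes TH and SLC6A3, against 1146 to 2547 CPM in the substantia nigra, and 0.0 to 334 CPM of the serotonin neuron genes TPH2 and SLC6A4. In these bulk samples, fewer cells of a type and less RNA per cell cannot be told apart.

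Across the 16 region groups, all 9 genes differed (F test of edgeR with the animal as a block, adjusted p below 0.05), as did 99.7% of the 16829 genes tested. A stricter rule, which also asked for a level over 2-fold above each other group, called 2 of the 9, HTR1D for the striatum and HTR2A for the cortex. It called 11.5% of all genes tested. The other 7 receptor genes had their highest level in the hippocampus (HTR1A), thalamus (HTR1B), striatum (HTR1E and HTR4), pituitary (HTR1F), hypothalamus (HTR2C) and cortex (HTR3A), each within 2-fold of the next group.

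**Figure D1:**
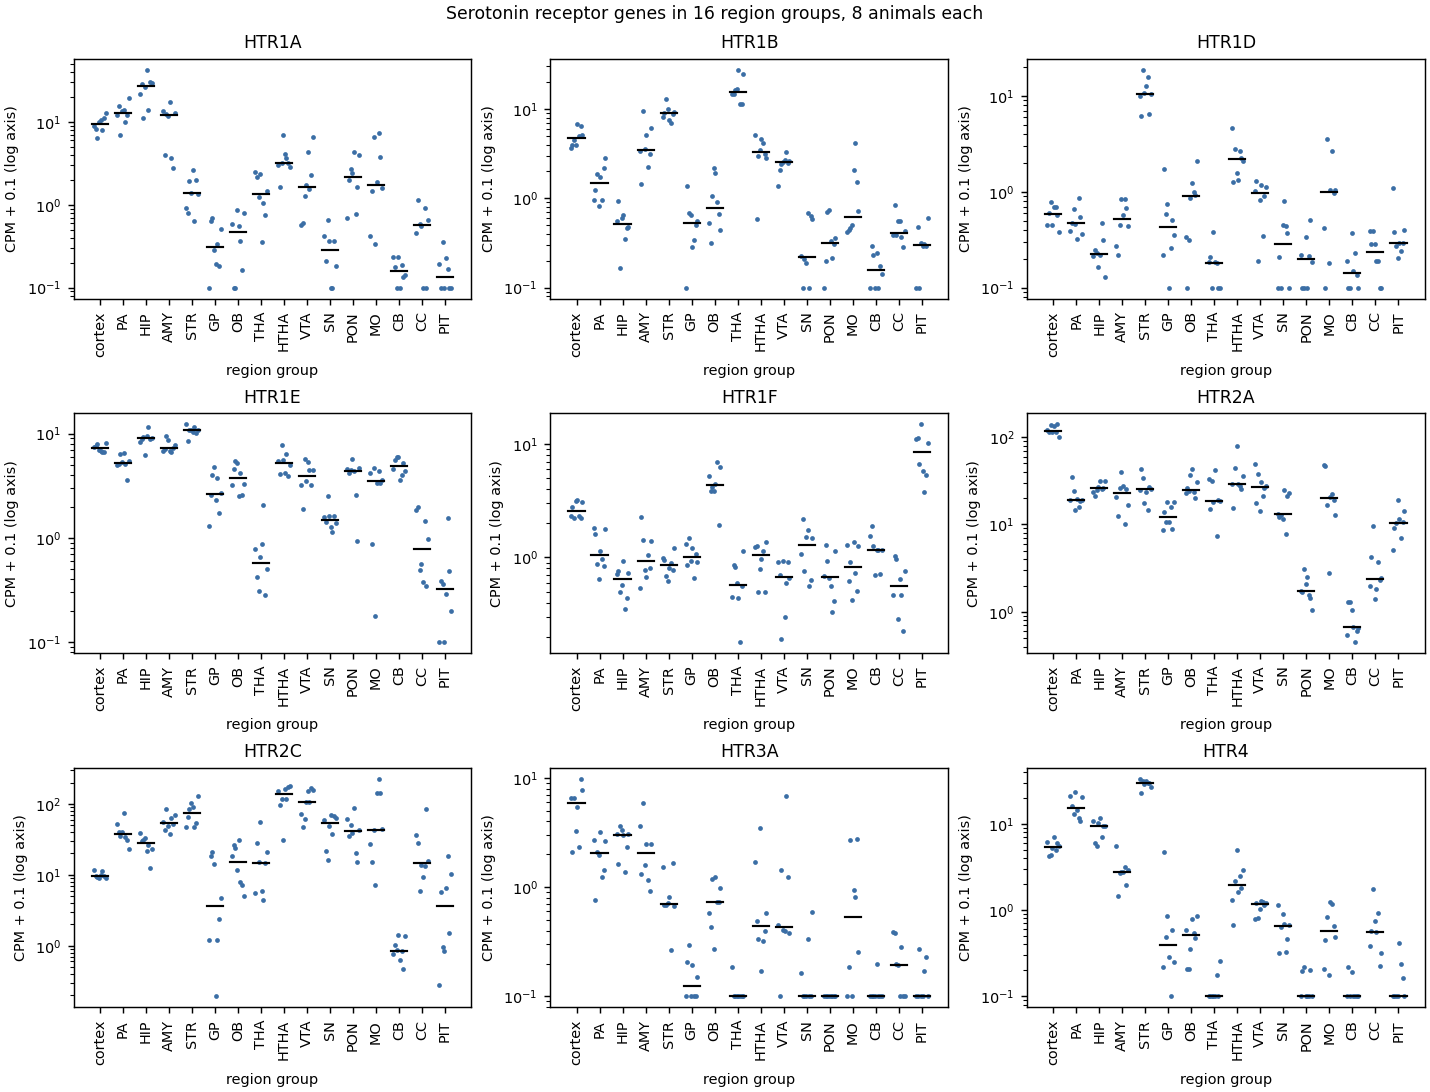
CPM plus 0.1 on a log axis for the 9 serotonin receptor genes in 16 region groups. Each point is 1 of 8 animals and each bar the median of a group. HTR1D in the striatum and HTR2A in the cortex lie above every other group, while HTR2C varies widely within the brain stem, corpus callosum and pituitary.

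HTR1A, the main inhibitory receptor on pyramidal neurons and the autoreceptor of raphe neurons, was highest in the hippocampus at 25.4 ± 9.88 CPM (SD, n = 8). The 8 hippocampal values ran from 10.9 to 42.1 CPM with a median of 27.3. The entorhinal and perirhinal cortex followed at 6.90 to 19.1 CPM, median 12.8. The ranges of these groups overlapped, but the hippocampus was the higher one in all 8 animals, with a log2 difference of 0.93 ± 0.33 (SE of the edgeR fit). The amygdala reached 2.69 to 17.3 CPM and the cortex 6.20 to 12.6 CPM, whereas the striatum was at 1.35 ± 0.680 CPM (SD, n = 8). In 6 of the 16 groups the median was below 0.5 CPM, and the cerebellum was lowest at 0.0642 ± 0.0537 CPM (SD, n = 8), under the limit of detection. Over the 51 sub-regions CA3 led, followed by CA1 and the anterior cingulate gyrus (ACG).

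In the VTA samples HTR1A ran from 0.466 to 6.39 CPM. It was highest in animals 11 and 7, at 6.39 and 4.22 CPM, the animals whose VTA samples also held the most TPH2 and SLC6A4, at 334 and 199 CPM in sum. It was lowest in animals 2 and 3, at 0.4656 and 0.4997 CPM, whose samples held 0.0 and 0.693 CPM of those 2 genes. In the medulla animal 8 was highest for HTR1A, at 7.32 CPM, and also for both TPH2 and SLC6A4. Below animal 8 the same order was not kept. Animal 4 held 6.43 CPM of HTR1A with 0.363 CPM of the markers in sum, and animal 3 held 1.38 CPM with 26.6 CPM. The part of serotonin neuron RNA in the VTA values was not tested. In the pons, where the same sum stayed between 0.117 and 0.669 CPM, HTR1A was at 2.22 ± 1.35 CPM (SD, n = 8).

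HTR1B, a presynaptic receptor that limits transmitter release, was highest in the thalamus, at 11.1 to 27.2 CPM with a median of 15.6 over 8 animals. The striatum was next at 6.93 to 12.9 CPM, median 8.84, and was lower than the thalamus in all 8 animals (log2 difference 0.90 ± 0.29, SE). The cortex stood at 4.83 ± 1.17 CPM and the hippocampus at 0.428 ± 0.228 CPM (SD, n = 8). The dentate gyrus held no HTR1B count in any of its 8 samples, which at 3 counts over their summed depth allows a level of up to 0.0351 CPM. CA1 held 0.0766 to 2.00 CPM. Counting intervals and limits of this kind cover counting error only.

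HTR1D, a close relative of HTR1B, was called for the striatum. Its striatal values ran from 6.06 to 18.6 CPM, median 10.51, and its hypothalamic values from 1.16 to 4.51 CPM, median 2.08. No value of another group reached the lowest striatal one, and the striatum was above the hypothalamus by 2.26 ± 0.37 on the log2 scale (SE, adjusted p = 3.86e-41 for the differences among groups). In 11 of the 16 groups the median was below 0.5 CPM, and in 188 of the 408 samples HTR1D had at most 3 counts.

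HTR1E is a receptor found in primates but not in rats or mice. The striatum was highest at 8.36 to 12.2 CPM, median 10.7, followed by the hippocampus at 6.15 to 11.4 CPM, median 8.91. These groups overlapped and their log2 difference was 0.22 ± 0.24 (SE), within its error. In the cerebellum HTR1E held 3.47 to 5.93 CPM, and it was lowest in the pituitary at 0.335 ± 0.475 CPM (SD, n = 8).

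HTR1F showed a different order. It was highest in the pituitary, at 3.69 to 14.8 CPM with a median of 8.37, then in the olfactory bulb at 1.83 to 6.90 CPM, median 4.24, and in the cortex at 2.11 to 3.09 CPM, median 2.44. The pituitary and olfactory bulb overlapped, with a log2 difference of 0.95 ± 0.22 (SE). The remaining 13 groups had means of 0.507 to 1.14 CPM.

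HTR2A was called for the cortex. The 8 cortical values ran from 101 to 140 CPM, median 118. The next group, the hypothalamus, held 15.5 to 78.0 CPM, median 28.9, and its highest value came from animal 6, whose hypothalamic sample held the cortical markers described above. Its range over the other 7 hypothalamic samples was 15.5 to 44.1 CPM. The cortex was above the hypothalamus by 1.72 ± 0.28 on the log2 scale (SE, adjusted p = 8.65e-44 for the differences among groups) and above each other group in all 8 animals. The entorhinal and perirhinal cortex, which lies next to the neocortex, held only 14.5 to 34.5 CPM. Levels fell below 4 CPM in the mean in the corpus callosum (3.34 ± 2.66), the pons (1.80 ± 0.640) and the cerebellum (0.725 ± 0.347 CPM, SD, n = 8).

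HTR2C had its highest levels below the cortex, and groups overlapped widely. The hypothalamus held 31.3 to 179 CPM, median 137, and its lowest value was that of animal 6. The VTA held 46.9 to 170 CPM, median 106, the medulla 7.09 to 227 CPM, median 43.5, and the striatum 47.02 to 129 CPM, median 75.6. In all, 10 other groups overlapped with the hypothalamus, and the hypothalamus and VTA differed by 0.27 ± 0.47 on the log2 scale (SE). The cortex was lower, at 8.83 to 11.5 CPM. Each cortical value sums 31 sub-regions of an animal, so its narrow range cannot be set against those of groups of a single sub-region. Single cortical samples spread more widely. They held 27 to 256 counts in the fusiform gyrus, the cortical sub-region with the highest mean. In the posterior superior occipital gyrus, the lowest, they held 5 to 39.

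HTR2C in the corpus callosum ran from 5.91 to 85.0 CPM. The summed level of 5 choroid plexus genes (TTR, CLIC6, FOLR1, OTX2 and KL, of 6 on the list) ran there from 188 to 2570 CPM. Animal 10 was highest for both, with 85.0 CPM of HTR2C and 2570 CPM of the markers, and animal 4 was lowest for both, with 5.91 and 188 CPM. Between these animals the same order was not kept. Animal 8 held 13.1 CPM of HTR2C with 732 CPM of TTR, the largest part of the sum. Animal 2 held 36.3 CPM with 663 CPM of TTR, and more OTX2 and KL than animal 8. The part of choroid plexus RNA in the HTR2C values was not tested.

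Another sample that stood apart was the globus pallidus of animal 3, with 540 CPM of striatal projection neuron markers against 210 to 258 CPM in the other 7. It held 4.63 CPM of HTR4, 1.61 of HTR1D and 1.29 of HTR1B, the highest of the 8 for each, and the others held at most 0.745, 0.652 and 0.591 CPM. The part of striatal RNA in these values was not tested. In the hypothalamus, HTR1A (6.84 CPM), HTR3A (3.37 CPM) and HTR4 (4.86 CPM) were, like HTR2A, highest in animal 6.

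**Figure D2:**
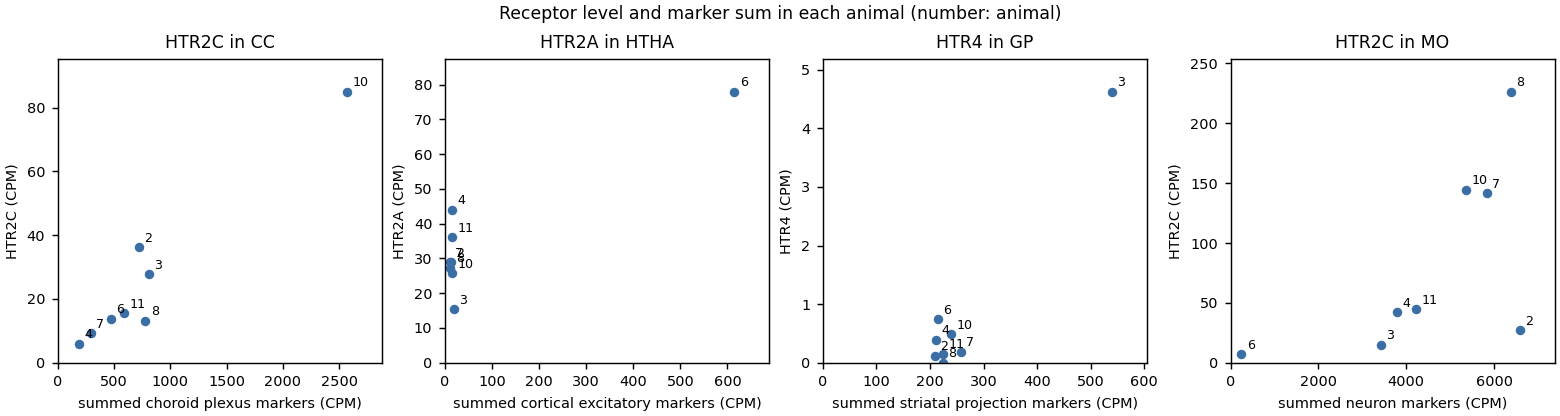
HTR2C in the corpus callosum against the summed choroid plexus markers, HTR2A in the hypothalamus against cortical excitatory neuron markers, HTR4 in the globus pallidus against striatal projection neuron markers, and HTR2C in the medulla against neuronal markers, all in CPM. Each point is 1 of 8 animals, labelled with its number. Animal 10 (85.0 CPM of HTR2C), animal 6 (78.0 CPM of HTR2A) and animal 3 (4.63 CPM of HTR4) are highest on both axes of their panels.

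HTR3A, the obligate subunit of the serotonin-gated channel, was highest in the cortex at 1.98 to 9.74 CPM, median 5.85, followed by the hippocampus at 1.28 to 3.52 CPM, median 2.93. The ranges overlapped, and the log2 difference was 0.93 ± 0.40 (SE). The cortical level differed more between animals than that of any other member, with an SD of 2.74 on a mean of 5.37 CPM. HTR3A had no count in any pons or vermis sample, which allows up to 0.0358 CPM in the pons and 0.0355 CPM in the vermis.

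HTR4 was highest in the striatum, with 22.5 to 33.1 CPM and a median of 29.9. The entorhinal and perirhinal cortex held 10.8 to 23.3 CPM, median 15.1, and the hippocampus 5.47 to 11.5 CPM, median 9.36. The first of these overlapped narrowly with the striatum but was lower than it in all 8 animals (log2 difference 0.80 ± 0.28, SE). The cerebellum, thalamus, pons and pituitary had means of 0.0260 to 0.0654 CPM, below the limit of detection.

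To find which neighbours in each order of levels were set apart from each other, the 15 adjacent pairs of groups of each gene, 135 in all, were compared within animals with an exact two-sided sign-flip test on log2(CPM + 0.5). The smallest p that this exact permutation of signs allows with 8 animals is p = 0.00781, and after Benjamini-Hochberg adjustment over the 135 pairs no pair passed 0.05 (0 pairs, smallest adjusted p = 0.0659). At an unadjusted p below 0.05 there were 26 pairs, of which 16 were at the smallest p, too few for any to pass the adjustment. The order was taken from these same values, so the counts of pairs are a description. They were not compared with those of other genes. In 16 pairs the higher group was higher in all 8 animals, among them 5 of HTR4 (striatum over entorhinal and perirhinal cortex, these over hippocampus, hippocampus over cortex, cortex over amygdala, and olfactory bulb over pituitary), 3 of HTR1A, 3 of HTR2A and 2 of HTR1B. For HTR2C and HTR3A there were 0 such pairs.

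The subdivisions of the striatum are supplied by different cortical areas, with limbic inputs reaching the nucleus accumbens and motor inputs the putamen. Of the 9 genes 7 passed the filter on low counts in the striatum (HTR1F and HTR3A did not), and all 7 differed among the 3 sub-regions, as did 57% of all genes tested. Only HTR2C was called for a single sub-region at over 2-fold above each other, a rule that called 3.21% of genes. HTR2C ran from 118 to 307 CPM in the nucleus accumbens, median 160, from 1.67 to 97.9 CPM in the caudate nucleus, median 25.1, and from 0.223 to 38.98 CPM in the putamen, median 1.02. The nucleus accumbens did not overlap with the other two and was above the caudate nucleus by 3.32 ± 0.59 on the log2 scale (SE, adjusted p = 9.3e-07 among the 3). The highest putamen value came from animal 4, and the other 7 putamen samples held 0.223 to 1.86 CPM.

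HTR1D had the same order, with 17.8 ± 9.67 CPM in the nucleus accumbens, 8.99 ± 3.39 in the caudate nucleus and 4.89 ± 4.01 in the putamen (SD, n = 8). The putamen of animal 4 was again the highest, at 14.3 CPM, against 2.12 to 5.86 CPM in the other 7. The nucleus accumbens was above the caudate nucleus in 6 of 8 animals, by 0.93 ± 0.32 on the log2 scale (SE). Without animal 2, 3 or 10 this difference was 1.2, 1.03 and 1.03, and HTR1D was then called too.

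In the other 5 genes the putamen was again the lowest, but the nucleus accumbens did not lead by more than its error. HTR4 ran from 36.6 to 48.2 CPM in the caudate nucleus, from 17.5 to 37.2 CPM in the nucleus accumbens and from 8.92 to 18.2 CPM in the putamen. The caudate nucleus was the highest of the 3 in all 8 animals, by 0.69 ± 0.14 over the nucleus accumbens and 1.91 ± 0.15 over the putamen (log2, SE, adjusted p = 2.81e-08). HTR1B held 11.0 ± 3.91 CPM in the caudate nucleus, 10.8 ± 2.86 in the nucleus accumbens and 3.30 ± 1.29 in the putamen (SD, n = 8), and the first 2 differed by 0.05 ± 0.21 (log2, SE). HTR2A was higher in the caudate nucleus than in either other part in all 8 animals, at 36.5 ± 9.87 CPM against 25.1 ± 8.28 and 11.5 ± 11.7 (SD, n = 8). HTR1E had the smallest span, from 12.5 ± 1.58 CPM in the caudate nucleus to 7.29 ± 0.959 in the putamen (SD, n = 8), a log2 difference of 0.76 ± 0.12 (SE, adjusted p = 7.41e-05). HTR1A was low in all 3, with means of 0.484 to 1.64 CPM.

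**Figure D3:**
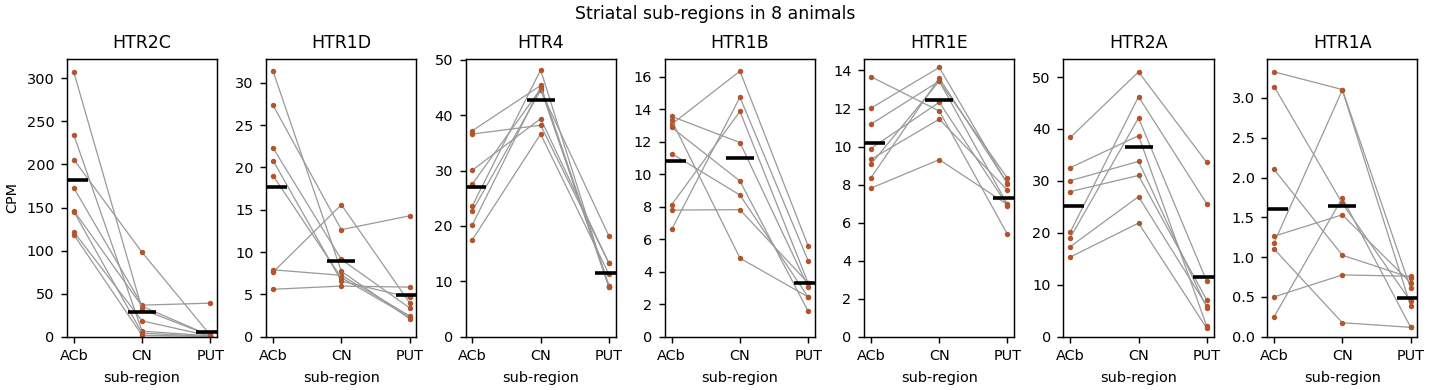
CPM of 7 receptor genes in the nucleus accumbens (ACb), caudate nucleus (CN) and putamen (PUT). Points joined by a line are 1 animal and black bars the means of 8 animals. The means of HTR2C and HTR1D fall from ACb to PUT, and HTR4 peaks in CN in every animal.

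Within the hippocampus 6 of the 9 genes were tested (HTR1B, HTR1D and HTR1F did not pass the filter). HTR1A, HTR2A and HTR3A differed among the 3 sub-regions, a result shared by 32.7% of all genes, and none of the 6 was over 2-fold above each other sub-region (0.683% of all genes were). HTR1A ran from 12.7 to 49.7 CPM in CA3, median 38.6, from 9.64 to 39.03 CPM in CA1, median 24.1, and from 9.27 to 35.6 CPM in the dentate gyrus, median 14.6. The ranges overlapped, but CA3 was above CA1 in all 8 animals, with a log2 difference of 0.46 ± 0.18 (SE, adjusted p = 0.00337 among the 3). HTR2A held 29.6 ± 7.17 CPM in the dentate gyrus, 26.97 ± 3.19 in CA3 and 20.2 ± 3.67 in CA1 (SD, n = 8). HTR3A was highest in CA1 at 4.13 ± 1.75 CPM and lowest in the dentate gyrus at 0.983 ± 0.857 (SD, n = 8), a log2 difference of 2.14 ± 0.39 (SE, adjusted p = 0.00134). The adjusted p was 0.188 for HTR1E, 0.0636 for HTR2C and 0.0814 for HTR4.

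Of the cerebellum's sub-regions, the cerebellar cortex held 4.64 to 8.38 CPM of HTR1E, median 6.41, and the vermis 1.48 to 3.75 CPM, median 2.52. The groups did not overlap and the log2 difference was 1.31 ± 0.12 (SE, adjusted p = 0.000992). HTR1E was the called gene of the 2 members that passed the filter. The call covered 0.225% of all genes and the test alone 0.842%. The other, HTR1F, differed by 0.34 ± 0.22 (log2, SE, adjusted p = 0.46). The remaining 7 genes had too few cerebellar counts to be tested.

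In the cortex all 9 genes differed among the 31 sub-regions, as did 75% of all genes tested there. The spread was widest for HTR1A, from 18.1 ± 5.73 CPM in the anterior cingulate gyrus to 0.451 ± 0.299 in the posterior superior occipital gyrus (pSOG; SD, n = 8), a 40.2-fold ratio of means. Their ranges of 9.11 to 27.5 and 0.142 to 0.876 CPM did not overlap. It was narrowest for HTR2A, from 190 ± 32.8 CPM in pSOG to 78.6 ± 12.7 in the superior precentral gyrus (SPrCG; SD, n = 8), a 2.42-fold ratio. The ratios of HTR1B, HTR1E, HTR2C, HTR3A and HTR4 lay between 4.26 and 9.19, and those of HTR1F and HTR1D were 2.96 and 3.87.

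The occipital lobe, which holds primary visual cortex, had the highest or lowest cortical sub-region for HTR1A, HTR1B, HTR1E, HTR2A, HTR2C and HTR4. Each lobe was compared with the mean of the other 4 after sums within each animal. In the occipital lobe 3 of the 9 genes were higher, where 29.9% of all genes tested were higher, and 6 were lower, where 26.4% of all genes were lower. HTR1B, HTR2A and HTR1F were the higher ones. HTR1B ran from 9.59 to 21.6 CPM in the occipital lobe, median 13.1, and from 1.90 to 5.36 CPM over all values of the other 4 lobes. The occipital values lay above all others, by 2.14 ± 0.08 on the log2 scale (SE, adjusted p = 7.44e-22). HTR2A ran from 118 to 211 CPM there, median 178, against lobe means of 104 to 112 CPM elsewhere. Its lowest occipital value, from animal 11, lay within the ranges of other lobes, though the occipital lobe was above the mean of the others in all 8 animals, a log2 difference of 0.75 ± 0.05 (SE, adjusted p = 5.95e-14). HTR1F was higher by 0.42 ± 0.15 (SE, adjusted p = 0.0174), and without animal 6 by 0.24, which did not pass.

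The 6 lower genes were led by HTR1A, with 0.375 to 1.43 CPM in the occipital lobe, median 0.682, against 9.64 to 18.3 CPM, median 13.7, in the frontal lobe. It fell by 3.45 on the log2 scale relative to the mean of the other lobes (SE 0.13, adjusted p = 8.69e-22), and no occipital value reached the lowest value of another lobe. HTR1E held 1.89 to 2.83 CPM in the occipital lobe, median 2.51, and 7.96 to 9.90 CPM in the frontal lobe, median 9.33. Its occipital log2 difference was -1.47 ± 0.07 (SE), and that of HTR4, which held 1.69 to 2.47 CPM there, was -1.28 ± 0.09. HTR3A followed with -1.26 ± 0.11, HTR2C with -0.74 ± 0.17 and HTR1D with -0.62 ± 0.17 (SE, adjusted p of 0.00213 or less). HTR2C was uneven within the lobe, with 973 counts over 8 samples in the anterior superior occipital gyrus. The inferior occipital gyrus held 382 and pSOG 215. The inhibitory receptors HTR1A and HTR1B, both coupled to Gi, thus had opposite occipital differences.

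**Figure D4:**
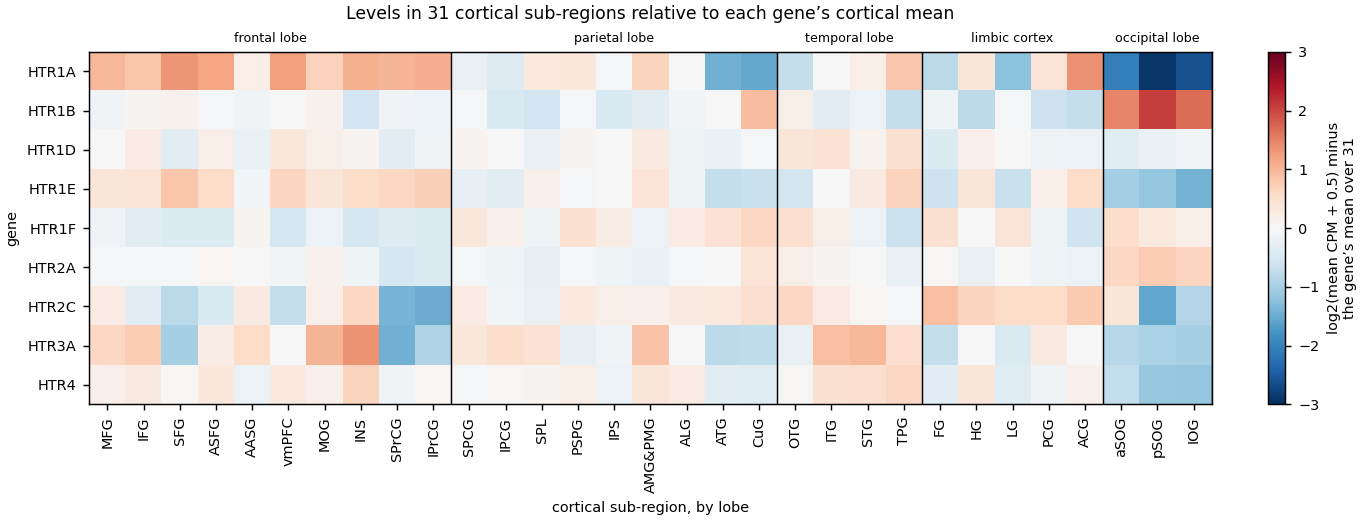
Level of each receptor gene in 31 cortical sub-regions, grouped by lobe, as log2(mean CPM + 0.5) minus the gene's mean over the 31. Red is above and blue below that mean. HTR1A, HTR1E, HTR3A and HTR4 are blue in the 3 occipital sub-regions and HTR1B and HTR2A are red.

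In the frontal lobe 4 of the 9 genes were higher (23% of all genes) and 4 lower (21%). HTR1A rose by 1.77 ± 0.08, HTR1E by 0.88 ± 0.05, HTR3A by 0.55 ± 0.09 and HTR4 by 0.42 ± 0.07 (log2, SE), and each was above the mean of the other lobes in all 8 animals. HTR1F, HTR2C, HTR1B and HTR2A were lower, by -0.61 ± 0.14, -0.40 ± 0.16, -0.38 ± 0.09 and -0.25 ± 0.06. The call of HTR2C was lost when animal 2, 3, 6, 8 or 10 was left out, with log2 differences of -0.41, -0.39, -0.26, -0.37 and -0.42. In the temporal lobe 5 were higher (13.7% of all genes) and 1 lower (12%). HTR1D rose there by 0.80 ± 0.13, HTR3A by 0.76 ± 0.09, HTR4 by 0.66 ± 0.07, HTR1A by 0.62 ± 0.09 and HTR1E by 0.36 ± 0.05, and HTR1B was lower by -0.55 ± 0.10. HTR1D was low in every lobe, with means from 0.3035 (occipital) to 0.680 CPM (temporal). The limit of detection in a single sample reached 0.385 CPM.

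The limbic cortex had 3 higher (8.51% of all genes) and 2 lower (7.42%). HTR1A rose by 0.77 ± 0.08, HTR2C by 0.76 ± 0.15 and HTR1E by 0.23 ± 0.05, while HTR1B and HTR2A were lower by -0.87 ± 0.10 and -0.23 ± 0.06. HTR2C ran from 8.04 to 16.9 CPM in the limbic cortex, median 13.8, and was above the mean of the other lobes in all 8 animals. The parietal lobe had 1 higher (4.68% of all genes), HTR1A by 0.29 ± 0.08, and 1 lower (4.96%), HTR1B by -0.34 ± 0.09. The first was not called without animal 3 or 4 (0.27 and 0.25) and the second not without animal 8 (-0.26). The contrast averages log2 levels, and the mean against which each of these 4 lobes was set contains the occipital lobe, so the contrasts are not independent. On the CPM scale the parietal lobe was above the mean of the other lobes for HTR1A in 1 of 8 animals, and the temporal lobe in 5. By mean CPM the parietal lobe was above only the occipital lobe for HTR1A. For HTR1B it was below only the occipital lobe, at 3.74 CPM against 14.3 CPM. The frontal, temporal and limbic means of HTR1B were 3.62, 3.24 and 2.72 CPM. The parietal calls therefore do not place HTR1A above, or HTR1B below, these lobes. A contrast without the occipital lobe was not tested.

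Single gyri departed from their lobes. Both precentral gyri, which hold motor cortex, belong to the frontal lobe but held little HTR3A (1.295 ± 0.773 CPM in SPrCG and 2.10 ± 1.43 in the inferior precentral gyrus, IPrCG) and little HTR2C (2.89 ± 1.17 and 2.65 ± 0.995 CPM, SD, n = 8). The insula (INS) was the highest cortical sub-region for HTR3A at 4.17 to 24.6 CPM, median 10.8, and for HTR4 at 4.93 to 10.3 CPM, median 7.82. HTR1E was highest in the posterior superior frontal gyrus (SFG) at 11.5 ± 1.59 CPM and lowest in the inferior occipital gyrus (IOG) at 2.05 ± 0.425. The cuneus gyrus (CuG), placed in the parietal lobe, was the highest cortical sub-region outside the occipital lobe for HTR1B and HTR2A, with 7.74 ± 5.87 and 151 ± 43.1 CPM (SD, n = 8).

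As a description over the 31 cortical sub-regions, which share animals and libraries' composition, the means of HTR1A and HTR1E on the log2 scale had a Pearson r of 0.97, HTR1A and HTR4 of 0.83, and HTR1B and HTR2A of 0.87. HTR1A and HTR2A had an r of -0.80 and HTR1A and HTR1B of -0.73. Over all 51 sub-regions the last 2 were 0.52 and 0.10.

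Mid-aged and young animals were compared in each region group with sex as a covariate, which gave 91 tested pairs of a receptor gene and a region group (the other 53 did not pass the filter). With edgeR 0 of the 91 were called at an adjusted p below 0.1 and a change over 2-fold, against 0.0164% of all 243260 pairs, and 10 had an unadjusted p below 0.05. The DESeq2 test called 4, but over all genes it also called far more pairs than edgeR, as given in the closing section. The smallest adjusted p was that of HTR1F in the pituitary, 0.175, with 3.69 to 6.57 CPM in the 4 young and 10.2 to 14.8 CPM in the 4 mid-aged animals. These ranges did not overlap and the log2 difference was 1.19 ± 0.24 (SE). The 7 anterior pituitary markers did not move together. Prolactin (PRL), which makes up most of their sum, held 39240 to 345100 CPM in the mid-aged and 25410 to 43510 CPM in the young samples. GHRHR held 256 to 994 CPM in the mid-aged and 888 to 1806 CPM in the young, and CGA 829 to 2513 and 2300 to 5217 CPM. Their part in the difference was not tested. Without animal 7 HTR1F was called, at 1.301, in a run where age calls over all genes rose from 40 to 927.

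In the medulla HTR2C was at 42.1 to 227 CPM in the young and 7.09 to 44.8 CPM in the mid-aged animals (log2 difference -2.48 ± 0.64, SE, adjusted p = 0.443 with edgeR). HTR1A was at 1.79 to 7.32 CPM in the young and 0.239 to 1.48 CPM in the mid-aged, and the groups did not overlap (-2.45 ± 0.68, SE, adjusted p = 0.443). The summed neuronal markers ran from 3792 to 6389 CPM in the young and from 246 to 6589 CPM in the mid-aged medulla, and the glycine transporter gene SLC6A5, the 1 hindbrain marker with a row, from 14.4 to 88.1 and from 0.648 to 20.8 CPM. HTR2C overlapped between the age stages in animals 4 and 11. The part of the neuronal markers in these values was not tested. Both genes were among the 4 calls of DESeq2, with HTR2C in the thalamus (1.57) and HTR1F in the pituitary (1.197). HTR2C in the medulla was also called by edgeR without animal 11, at -3.36. Leaving out each animal in turn gave 3 to 927 age calls over all genes.

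Females and males, with age stage as a covariate, gave 0 calls among the same 91 pairs by edgeR and 0 by DESeq2, against 0.105% of all pairs, with 5 at an unadjusted p below 0.05 and a smallest adjusted p of 0.232. That was HTR2A in the pituitary, 0.75 ± 0.33 higher in females on the log2 scale (SE). Without animal 7 it was 1.03 and was called, in a run where sex calls over all genes rose from 256 to 2235.

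Of the other receptor genes of the family, 7 had a row and 3 were tested across region groups, where 11.5% of all genes were called. HTR5A was called for the cerebellum, with 74.5 to 117 CPM there against 19.7 to 32.3 CPM in the striatum. HTR6, which raises cyclic AMP and whose symbol, like that of HTR1F, came from the supplementary tables, was called for the striatum, with 52.3 to 96.3 CPM against 17.9 to 30.95 CPM in the cortex. Of the 4 tested in the lobes, HTR2B, HTR3B and HTR6 were lower in the occipital lobe (26.4% of all genes) and higher in the frontal lobe (23%). HTR6 was higher in the temporal lobe (13.7%) and HTR5A lower in the limbic cortex (7.42%). None of the 7 was called in the striatum, hippocampus or cerebellum (3, 2 and 1 tested), against 3.21%, 0.683% and 0.225% of all genes.

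Of 8 genes of serotonin synthesis, transport and breakdown 7 had a row and were tested, and 5 were called for a region group, against 11.5% of all genes. TPH2, the neuronal form of the enzyme that starts serotonin synthesis, and SLC6A4, the serotonin transporter, were called for the VTA. On the scale of region groups they varied there from 0.0 to 98.2 CPM and from 0.0 to 243 CPM, and the 8 VTA samples thus included ones with none detected. TPH1, the form of the same enzyme used outside serotonin neurons, was called for the pituitary at 4.13 ± 1.51 CPM (SD, n = 8). Its pituitary range of 2.25 to 7.02 CPM overlapped with others, such as the medulla at 0.0 to 10.2 and the hypothalamus at 0.297 to 5.01 CPM. In the occipital lobe TPH1 was higher (29.9% of all genes), and TPH2 and the serotonin-degrading enzymes MAOA and MAOB were lower (26.4%). Over the whole cortex TPH2 was at 0.130 to 0.166 CPM, around the limit of detection in a single sample. MAOA and MAOB were at 31.6 to 38.8 and 96.5 to 123 CPM.

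Of 18 genes of transduction and receptor modification 13 had a row and 1 was called for a region group, against 11.5% of all genes. That gene was ADCY5, the main adenylyl cyclase of striatal neurons. It held 836 to 1210 CPM in the striatum against 139 to 194 CPM in the substantia nigra. In the occipital lobe 3 were higher (GNAI1, GNAI3 and ADARB1) and 3 lower (ADCY5, GNA11 and GNAO1), shares of the 13 no larger than the 29.9% and 26.4% of all genes. No gene of the 3 lists was called for age stage or sex by edgeR (39, 66 and 205 pairs tested for each).

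For each receptor gene the genes with the most similar profile were taken among 13411 genes by Pearson's r of mean log2(CPM + 0.5) over the 51 sub-regions, as a description, since sub-regions share animals. HTR1D was most like DRD3 (r = 0.93), the dopamine receptor of the ventral striatum, then GPR6 and UPB1 (0.89 for both). By Spearman's rho these 3 were 0.51, 0.61 and 0.45, at places 105, 10 and 245, and HTR1D had a median below 0.5 CPM in 32 of the 51 sub-regions. HTR4 was most like DYDC2 (0.93), PPP2R5C and PHACTR1 (0.92 for both), and HTR2A like LRRFIP1 (0.92) and WTIP (0.91). EXOC3L4, AKR1C8 and CHCHD6 were closest to HTR1A (0.92, 0.90 and 0.90), CIT, FAR2 and HSPH1 to HTR1B (0.82, 0.81 and 0.78), and IL27RA, NTRK3 and SLC25A23 to HTR1E (0.85, 0.85 and 0.84). The closest to HTR1F were MELTF, FAP and ETV4 (0.89, 0.89 and 0.88), and to HTR3A CHRDL2, CYP2E1 and ANKRD1 (0.90 for each). HTR2C had the lowest values, 0.76 with PGRMC1, 0.73 with RTP5 and 0.73 with LRRC61.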

How the data were processed

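Total RNA was depleted of ribosomal RNA (Ribo-Zero Gold) and made into NEBNext Ultra Directional libraries. Per the labels and the study's methods, the authors checked reads with FastQC 0.11.4, trimmed poor-quality samples with Trim Galore 0.4.4, aligned reads with HISAT2 2.0.5 and deposited raw counts per gene made with HTSeq 0.6.1. How the counting treated strand and overlaps is not given in the sources used here, so reads of overlapping or antisense genes may be shared. Symbols came from a reference list for 17572 IDs and from the study's supplementary ID columns alone for 890. All count columns mapped to a sample (0 unmapped) and 0 were identical to another.

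Counts of the sub-regions of a region group or lobe were summed within each animal. Tests used edgeR 4.0.16 (R 4.3.3, limma 3.58.1) with TMM, filterByExpr, quasi-likelihood F tests and Benjamini-Hochberg adjustment over all genes. Region groups and sub-regions were called at an adjusted p below 0.05 and over 2-fold above each other, lobes and cortical sub-regions at 0.05 alone, and age and sex at 0.1 and an absolute log2 change over 1. Each region comparison had the animal as a block, since the labels give samples of the same animal. Deviations from sub-region means had a median correlation of 0.42 within an animal and -0.06 between animals. In each value, n is the number of animals. CPM were TMM-scaled, in Python 3.11.15 (pandas 2.3.3, numpy 2.4.6), and plotted with matplotlib 3.10.9. DESeq2 1.42.0 was an alternative. The fits were tested on simulated data. Totals per sample limit precision as given with the levels.

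The members, gene lists and tests were chosen with earlier results of these data known. All members are named, with the 3 genes most like each by Pearson's r and at most 3 called genes per list, comparison and direction. A gene that this rule names is not reported here. The 33 ATAC-seq samples and 8 midbrain samples are not analysed here. No sequences or gene lengths were used.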

Additional observations from a re-analysis of the deposited data

Results flagged for a closer look

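In 22 of 144 combinations of a receptor gene and a region group, the highest of the 8 animals stood off from the rest by more than Dixon's critical ratio for 8 values. For normally distributed values chance marks about 1 in 20 groups, here 7.2 combinations. The levels are CPM that were not checked for this, and those near the limit of detection rest on few counts. The combinations also share samples, and the share over all genes was not counted, so no excess over chance can be read from the 22. The hypothalamus of animal 6 was high for HTR1A (6.84 CPM), HTR2A (78.0 CPM) and HTR3A (3.37 CPM), and the globus pallidus of animal 3 for HTR1B (1.29 CPM), HTR1D (1.61 CPM) and HTR4 (4.63 CPM), the samples whose marker levels stood apart. In the corpus callosum animal 4 was high for HTR2A (9.49 CPM) and HTR4 (1.65 CPM), with the highest neuronal marker sum of the 8 (594 CPM), and animal 10 for HTR2C (85.0 CPM). In the thalamus animal 6 was high for HTR1D (0.280 CPM) and HTR2C (55.4 CPM), animal 8 for HTR1E (1.98 CPM) and animal 2 for HTR3A (0.0860 CPM). In the pituitary the same held for animal 2 with HTR1D (1.00 CPM), animal 8 with HTR1E (1.46 CPM) and animal 7 with HTR4 (0.320 CPM). The others were HTR1B in the medulla of animal 8 (4.10 CPM), HTR1D in the hypothalamus of animal 2 (4.51 CPM), HTR1E in the substantia nigra of animal 4 (2.40 CPM), HTR3A in the cerebellum of animal 7 (0.0963 CPM) and the VTA of animal 8 (6.78 CPM), and HTR4 in the amygdala of animal 2 (5.44 CPM). HTR1D in the thalamus had at most 4 counts in a sample. The HTR3A values in the thalamus and cerebellum rest on 1 and 2 counts with the other 7 animals at 0, under the limit of detection, so nothing can be read from them. What set the other samples apart was not tested.

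For 3 genes the mid-aged and young animals did not overlap in either of 2 regions and differed in opposite directions. The log2 ratio of the mid-aged to the young mean, each plus 0.5 CPM, was 1.01 in the thalamus and -1.97 in the medulla for HTR1A, 1.47 in the hypothalamus and -1.98 in the medulla for HTR3A, and 0.67 in the entorhinal and perirhinal cortex and -0.92 in the medulla for HTR4. Animal 6, mid-aged, gave the hypothalamic sample with cortical markers and the medulla sample with few neuronal ones. Without it, a choice made after seeing the data, HTR3A was at 0.90 in the hypothalamus and -1.93 in the medulla, HTR1A at 0.97 in the thalamus and -1.76 in the medulla, and HTR4 at 0.60 in the entorhinal and perirhinal cortex and -0.82 in the medulla. HTR3A in the hypothalamus and medulla and HTR4 in the medulla did not pass the filter of the age test. HTR3A held 0.0721 to 0.297 CPM in the young hypothalamus and 0.0 to 0.156 CPM in the mid-aged medulla. HTR4 held 0.0796 to 0.390 CPM in the mid-aged medulla, and all of these lie around the limit of detection. The share of all genes that separate in this way was not counted. The difference between the regions was not tested, and all 3 involve the medulla.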

How the results depend on the processing

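No result that was called changed direction under any alternative run. Of the 9 receptor genes, 2 were called for a region group by edgeR, 2 by DESeq2, 2 with DESeq2 size factors, 2 with no replicate block, 3 with a filter of a count over 1 in 3 samples (HTR3A, 1.01 over the hippocampus) and 1 at over 4-fold (HTR2A, at 1.72, was lost). Leaving out each animal in turn, chosen like the other such omissions for regions after seeing the data, gave 2 to 3 (HTR3A without animal 3 or 6, HTR1F without animal 7 or 8). It gave 1 to 2 genes in the striatum, 0 in the hippocampus, 1 in the cerebellum, and 28 to 31 of the 45 pairs of a gene and a lobe. Without the animal as a block 22 of 30 lobe calls were kept, and HTR1B, HTR2C and HTR3A in the frontal lobe, HTR1E and HTR2A in the limbic cortex, HTR1A and HTR1B in the parietal lobe and HTR3A in the temporal lobe were lost. The missing block changed no call of a receptor gene in the other region comparisons. For age stage, 0 calls became 4 with DESeq2 and 0 to 1 without each animal in turn. For sex, they became 0 to 1. Over all genes, the calls for region groups were 1937, against 3160 with the looser filter and 589 at over 4-fold. In the striatum 476 became 790 and in the hippocampus 101 became 179 with that filter. In the cerebellum 32 became 10 without the block and 17 to 42 without each animal. Lobe calls went from 26493 to 10977 without the block. Age calls went from 40 to 802 with DESeq2, 13 with no covariate and 3 to 927 without each animal (927 without animal 7), and sex calls from 256 to 999 with DESeq2 and 2235 without animal 7. Of the 27 most similar genes 7 stayed among the first 3 with Spearman's rho. Depth limits HTR1D most, with at most 3 counts in 188 samples. The causes were not tested.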
